A study of Arabidopsis thaliana with 8 samples.

Results

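The genotype by ABA interaction was measured for every gene on all 8 arrays of the series, as the ABA response of ThbZIP1 overexpression plants minus the ABA response of wild type. ABA (abscisic acid) is the hormone that plants make under drought, salt and cold. RNA of Arabidopsis thaliana was hybridized with a single dye to Agilent oligonucleotide arrays, 2 arrays per group. The groups were overexpression plants (OE) given 10 µM ABA for 3 h, OE given water, wild-type Col-0 (WT) given 10 µM ABA for 3 h, and WT given water, all 4 weeks old. ThbZIP1 is a bZIP transcription factor of the salt-tolerant shrub Tamarix hispida, and the OE plants were of T3 homozygous lines. Root and shoot of whole seedlings were pooled within a treatment, so a weaker signal from fewer cells and from less RNA per cell cannot be told apart. The groups follow the sample titles, genotype and treatment fields. The free-text descriptions of the same samples go against these, naming another Arabidopsis gene, an insertion line, NaCl or, for OE under ABA, water-treated wild type. If those descriptions were right, the contrasts would not be what their labels say, and this was not tested. The promoter that drives the transgene is not given in the sources used here, and the transgene's own level was not analysed here.

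ABA is sensed by PYR/PYL receptors, which inhibit the clade A PP2C phosphatases and thereby release SnRK2 kinases. SnRK2 kinases activate the group A bZIP factors of the ABF/ABI5 family, which bind ACGT-containing elements in the promoters of protective genes such as dehydrins and other LEA (late embryogenesis abundant) proteins. PP2C genes are themselves induced and PYR/PYL genes repressed by ABA, which dampens the response. The question here was which genes of this pathway, and of others, answered ABA differently once a further bZIP factor was expressed.

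Levels are log2 signals relative to each array's 75th percentile. A contrast is a difference of 2 such log2 responses, so that a contrast of 1 is a 2-fold difference between the fold responses, positive where the response in OE was the higher. Where a gene was below background in a group, its contrast is a fitted value whose size is not measured and whose sign may not be. All 8 of the 8 arrays entered the contrast. Of 43603 gene probes, 31264 gave a signal well above background in duplicate in 1 group or more and were tested, and 12339 did not. The tested probes with a locus tag stood for 19467 genes. Between 68.0% and 72.1% of the probes were above background on an array, no spot was saturated, and r between duplicate arrays was 0.971 to 0.984. The number of arrays limits the precision, and p-values measure only the spread between these arrays. WT in water replicate 1 had 1148 spots marked as outliers, which were left out, against at most 24 on any other array. The 4 OE arrays lay on 1 slide, whereas WT under ABA lay on 2 slides and WT in water on another. The ABA response of OE was therefore a comparison within a slide and that of WT a comparison between slides, and in WT treatment and slide cannot be told apart.

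No probe passed an adjusted p of 0.05 with a contrast of at least 2-fold (0 of 31264 probes, 0%, limma with Benjamini-Hochberg adjustment), and the lowest adjusted p was 0.0953. Welch's comparison and ordinary least squares also called 0 probes after adjustment, and passed 569 and 1327 probes at an unadjusted p under 0.05 and at least 2-fold. By that unadjusted rule limma passed 1146 probes with a positive and 881 with a negative contrast, 56.5% of them positive, against 74.9% positive after normexp background correction. Read as 1 probe per gene, 686 of 19467 genes (3.52%) had a positive contrast past this unadjusted rule and 569 (2.92%) a negative contrast. Single contrasts below are therefore sizes with standard errors (SE), not calls. Whatever their size, the contrasts of 10043 of 19467 genes (51.6%) were positive and those of 9424 negative. Counts of signs in the lists below are to be read beside that share, and genes of a list are not independent of each other. The responses within a genotype did yield calls at an adjusted p under 0.05 and at least 2-fold. Below, counts of genes that rose or fell under ABA, or did so in 1 genotype alone, are counts of these calls. A gene not called may still have responded. ABA raised 332 genes in OE (1.71%) and 113 in WT (0.58%), and lowered 81 in OE (0.416%) and 51 in WT (0.262%). These calls rest on few arrays, since the 639 probes called in OE became 19 without OE in water replicate 2, and the 251 called in WT became 8 without WT under ABA replicate 2. A total of 88 genes were called in the same direction in both genotypes, and 1 in opposite directions. Counts of calls in the lists below are to be read beside the shares of all genes called, which were larger in OE than in WT. Counts past the unadjusted rule are likewise to be read beside 3.52% (positive) and 2.92% (negative). Across genes the OE and WT responses, which share no array, correlated with Pearson's r = 0.391 and Spearman's rho = 0.192, where genes are not independent replicates.

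Of the 1255 genes past the unadjusted rule, 401 had a response of at least 2-fold in OE alone and 342 in WT alone. Another 72 moved at least 2-fold in opposite directions, 58 moved the same way with the larger response in OE, and 17 moved the same way with the smaller response in OE. Of those 58, 55 had a positive contrast. The remaining 365 reached 2-fold in neither genotype. In 3040 of the 18686 genes measured on all arrays (16.3%), every difference between an ABA and a water array of OE lay above every such difference of WT, and in 2423 (13%) every such difference lay below. The scatter of both responses shows these classes on either side of the line of equal response.

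**Figure D1:**
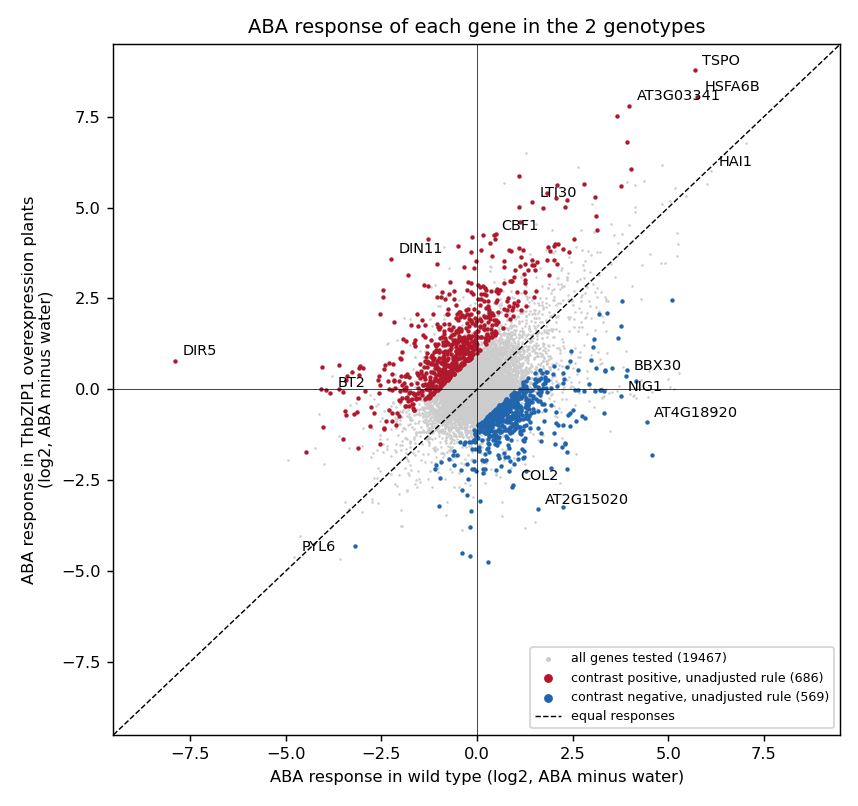
ABA response of each of 19467 genes in OE (vertical axis) against WT (horizontal axis), both as log2 of ABA minus water, with genes past the unadjusted rule in red (686, positive contrast) and blue (569, negative contrast). LTI30, CBF1 and AT3G03341 lie far above the dashed line of equal response, BBX30 and AT2G15020 far below it, and HAI1 and PYL6 close to it. DIR5 was not well above background on any OE array.

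For most of these genes the genotypes were further apart in water than under ABA. Among the 686 genes with a positive contrast, this held for 509, and the reverse for 177. Their median level in OE relative to WT was 0.06 under ABA and -1.63 in water. Among the 569 genes with a negative contrast, the water gap was the larger for 384 and the ABA gap for 185, and the median level in OE relative to WT was -0.22 under ABA and 1.28 in water. These gaps come from the same arrays as the contrast, which is the ABA gap minus the water gap. The genes were thus picked for unequal gaps. How the gaps compare over all genes was not counted, and they are given as a description. Each genotype was scanned on its own day, so genotype and scan day cannot be told apart in them.

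The clade A PP2C phosphatases are the negative regulators that the receptors inhibit. Of 7 tested, 6 rose in OE and 5 in WT, the median response was 2.80 in OE and 2.67 in WT, and the median contrast was 0.04 against 0.02 over all genes. HAI1 (AT5G59220) stood at 1.73 and 1.33 in OE under ABA, at -5.12 and -3.82 in OE in water, at 2.56 and 2.75 in WT under ABA, and at -3.06 and -3.89 in WT in water. Its ABA and water arrays did not overlap in either genotype, and it rose 64.1-fold in OE and 69.9-fold in WT, with a contrast of -0.13 ± 0.67 (SE). ABI1, the classical ABA-insensitive locus, rose 4.84-fold in OE and 3.30-fold in WT (contrast 0.55 ± 0.25). ABI2 rose by 2.81 in OE and 2.87 in WT, HAB1 by 2.24 and 2.67 in the same order, and PP2CA by 2.80 and 2.23. HAI2 was called in OE alone, with responses of 5.73 in OE and 4.36 in WT and a contrast of 1.38 ± 0.99.

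Of 9 tested PYR/PYL receptors, 4 fell in OE and 3 in WT, with a median contrast of 0.11. PYL5 fell by 2.44 in OE and fell by 2.68 in WT, and PYL6 was not well above background on either OE array under ABA, where it was at least 18.2-fold lower than in OE in water (adjusted p = 0.0126). PYL4, a main receptor of vegetative tissue, stood at -4.30 and -4.11 in OE under ABA, 0.24 and -0.03 in OE in water, -3.07 and -2.74 in WT under ABA, and 0.13 and 0.42 in WT in water. The water arrays of both genotypes were close, and OE under ABA was the lowest group. PYL4 fell by 4.31 in OE and fell by 3.17 in WT, a contrast of -1.14 ± 0.28 (adjusted p = 0.246). PYL1 fell by 1.14 in OE, against a response of -0.47 in WT. PYL2 had the largest contrast of the list, -2.29 ± 1.03, with a response of -3.09 in OE and -0.79 in WT, neither of them called.

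Among the kinases and bZIP factors downstream, none of the 10 SnRK2 genes passed the test in either genotype, and their median contrast was 0.36. The largest in size was that of SNRK2.7, 1.15 ± 0.70, followed by SNRK2-8 at -1.07 ± 0.45 and by the central ABA kinases SNRK2.2 at 0.89 ± 0.23 and SNRK2.3 at 0.74 ± 0.30. Of 8 group A bZIP genes, the Arabidopsis relatives of ABI5, ABF2 and ABF3 (no value on WT in water replicate 1) rose in both genotypes, and ABF4 was called in OE alone. ABF4 stood at 2.21 and 2.17 in OE under ABA, 1.10 and 1.22 in OE in water, 2.23 and 2.29 in WT under ABA, and 2.22 and 2.59 in WT in water. OE in water was the low group, and the other groups lay close together. The response of ABF4 was 1.03 in OE and -0.14 in WT (contrast 1.17 ± 0.23, adjusted p = 0.192). ABF1 had a contrast of 0.84 ± 0.29, ABF3 of 0.73 ± 0.26, and ABI5 of -0.35 ± 0.89.

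Genes for making and breaking down ABA had contrasts of both signs. NCED3, which catalyses the rate-limiting cleavage step of ABA synthesis, responded by 1.62 in OE and -0.67 in WT, a contrast of 2.29 ± 0.45 (adjusted p = 0.193). CYP707A2, an ABA hydroxylase that inactivates the hormone, responded by 1.38 in OE and rose by 3.06 in WT, a contrast of -1.68 ± 0.56. The hydroxylase gene CYP707A4 (contrast -2.38 ± 1.22) and the synthesis gene NCED5 (-1.91 ± 1.40) had larger standard errors. The median contrast of the 12 tested genes of this list was -0.28.

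AFP1, AFP2, AFP3 and TMAC2 encode small proteins that bind ABI5 and restrain ABA signalling. All 4 rose in OE, 2 of them also rose in WT, and all 4 contrasts passed the unadjusted rule, with a median of 1.80 against 0.02 over all genes. After normexp correction the median was 1.17, against 0.326 over all probes. AFP1 (AT1G69260) stood at 1.64 and 1.61 in OE under ABA, -4.33 and -4.54 in OE in water, 1.30 and 1.76 in WT under ABA, and -2.38 and -2.60 in WT in water. The genotypes overlapped under ABA, and OE was the lower in water. AFP1 rose by 6.06 in OE and by 4.02 in WT, a contrast of 2.04 ± 0.28 (adjusted p = 0.129). The other tested probe of AFP1 gave a contrast of -1.67, so its probes disagree. AFP3 rose 16.0-fold in OE and 4.38-fold in WT (contrast 1.87 ± 0.34). TMAC2 and AFP2 were called in OE alone, where they rose by 3.01 and 1.41, against 1.27 and 0.21 in WT.

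Dehydrins and other LEA proteins are hydrophilic proteins that protect membranes and enzymes of drying or freezing cells. Among 15 genes, all tested, 10 increases were called in OE and 2 in WT, against 1.71% and 0.58% of all genes. The median response was 2.52 in OE and 0.95 in WT, the median contrast was 1.38, and 7 contrasts were positive past the unadjusted rule and 0 negative. LTI30 (AT3G50970), a cold- and ABA-induced dehydrin, stood at 3.18 and 2.79 in OE under ABA, -1.88 and -2.46 in OE in water, 2.74 and 3.30 in WT under ABA, and 2.20 and 0.94 in WT in water. Under ABA the genotypes overlapped, and in water OE was below both WT arrays. LTI30 rose 35.6-fold in OE, whereas its ratio in WT was 2.73 (adjusted p = 0.212), a contrast of 3.70 ± 0.65 (adjusted p = 0.176).

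COR15A (AT2G42540), a chloroplast LEA protein that stabilizes membranes in the cold, stood at 4.86 and 5.12 in OE under ABA, 0.83 and 1.47 in OE in water, 3.23 and 2.94 in WT under ABA, and 3.99 and 1.97 in WT in water. Here OE under ABA was above every WT array and OE in water below every WT array. COR15A rose 14.3-fold in OE, against a ratio of 1.07 in WT, with a contrast of 3.74 ± 0.89 and WT water arrays far apart. Its neighbour and close relative COR15B rose by 2.49 in OE, against 0.02 in WT (contrast 2.46 ± 0.42), and cross-hybridization between the relatives was not tested. LEA14 rose by 2.39 in OE, against 0.50 in WT, the acidic dehydrin ERD10 by 2.52 against 0.80, COR47 by 1.76 against 0.38 and ERD14 by 1.42 against 0.61. EM1, a seed LEA gene, was not well above background in OE in water and was at least 15.6-fold higher in OE under ABA (adjusted p = 0.0308). LEA4-5 rose in both genotypes, in OE at least 14.8-fold. Of the 15 contrasts 12 were positive and 3 negative, the lowest being that of XERO1 at -1.50 ± 1.97, below background in WT in water. The SE also exceeded the contrast for KIN1 (0.57 ± 0.73), KIN2 (0.68 ± 0.75), AT5G66400 (RAB18, 0.51 ± 0.77) and LEA7 (-0.24 ± 1.77).

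ABA-induced genes other than LEA genes ran from -4.64 to 3.59. Of 15 tested, 7 rose in OE and 3 in WT, and the median contrast was 0.91. It became 0.21 without WT in water replicate 1 and 1.55 without WT in water replicate 2. TSPO, an ABA-induced membrane protein, was not well above background in OE in water and was at least 133.1-fold higher under ABA. In WT, where it was above background on all arrays, it rose 51.9-fold. HVA22E rose by 2.32 in OE against 0.07 in WT, and ADH1, alcohol dehydrogenase, by 4.15 against 2.53. LTI78 (RD29A) had a contrast of 3.59 ± 1.35. LTI65 (RD29B), below background in water in both genotypes, rose at least 3.74-fold in OE and at least 26.2-fold in WT. RD20 and HVA22D (no value on WT in water replicate 1) were called in OE alone, with contrasts of 1.08 ± 0.77 and 0.93 ± 0.36. The lipid transfer protein genes LTP4 (-4.64 ± 2.27) and LTP3 (-2.47 ± 1.70) had the most negative contrasts and the largest errors, and for LTP4 the OE water arrays were far apart, at 1.74 and -3.31. The galactinol and raffinose genes, which make protective sugars, had a median contrast of 0.98 over 6 genes, with GolS2 alone called, in OE (no value on WT in water replicate 1).

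**Figure D2:**
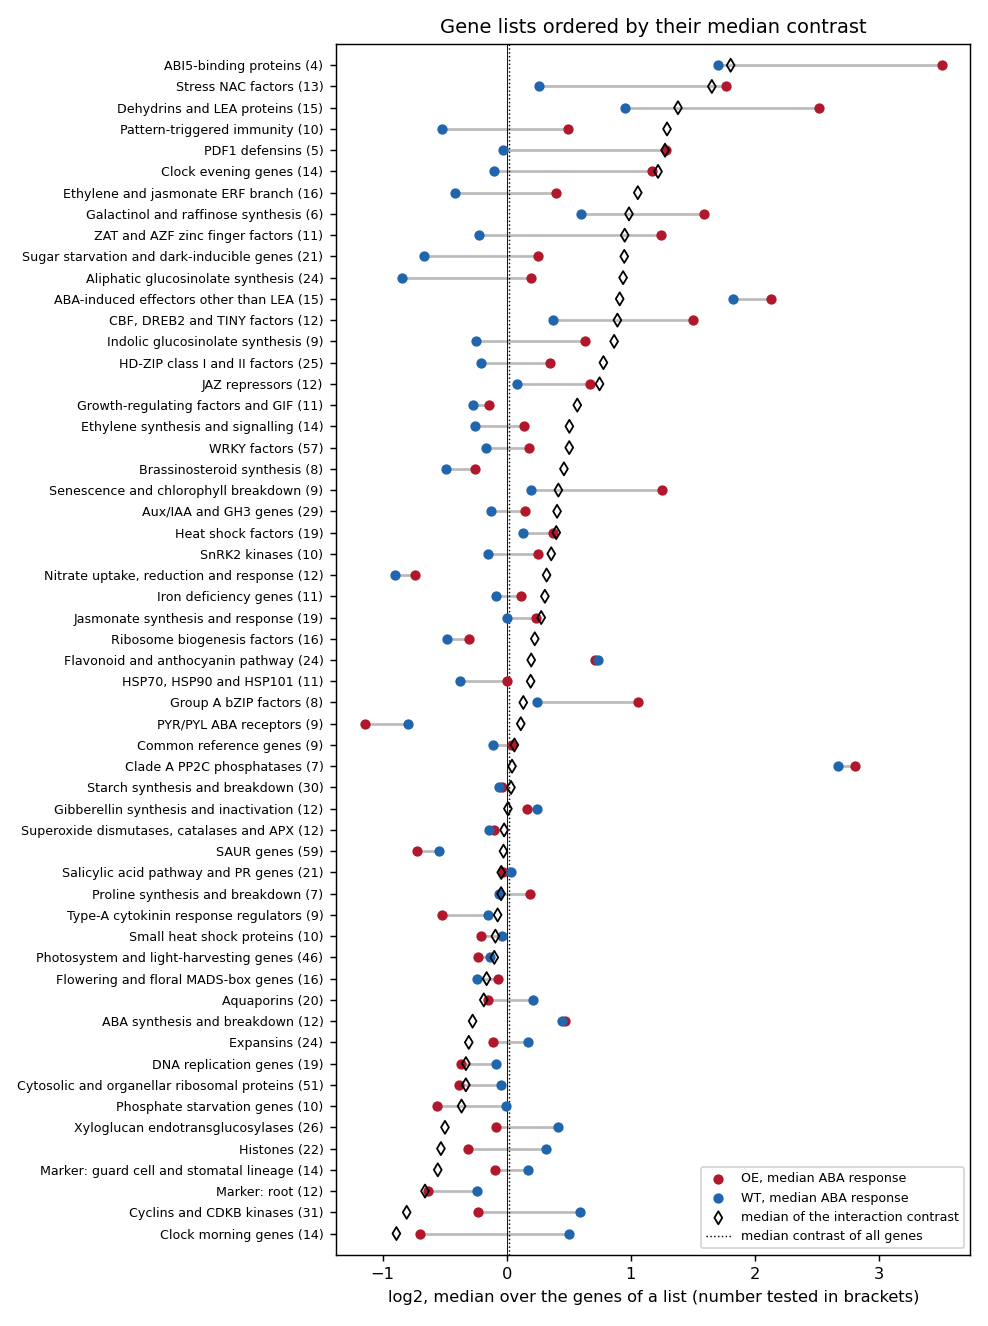
Median ABA response in OE (red) and in WT (blue), and median interaction contrast (open diamonds), in log2, of each list with at least 4 tested genes, ordered by the contrast. The ABI5-binding proteins (1.80), stress NAC factors (1.65) and dehydrins (1.38) stand at the top and the clock morning genes (-0.89) and cyclins (-0.81) at the bottom, while the PP2C medians of 2.80 and 2.67 nearly coincide.

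NAC factors of the ATAF and NAP groups control drought, senescence and jasmonate responses. All 13 tested had a positive contrast, 8 of them past the unadjusted rule (3.52% over all genes), with a median of 1.65. Of the 13, 6 rose in OE and 1 in WT, against 1.71% and 0.58% of all genes. NAC019 (AT1G52890), the gene called in both genotypes, stood at 3.11 and 3.79 in OE under ABA, -0.62 and -0.47 in OE in water, 4.10 and 4.20 in WT under ABA, and 2.26 and 1.96 in WT in water. OE was below WT in each treatment, and by more in water. NAC019 rose 16.0-fold in OE and 4.11-fold in WT (contrast 1.96 ± 0.35, adjusted p = 0.179). RD26 rose 14.2-fold in OE, against a ratio of 2.30 in WT (contrast 2.62 ± 0.45), and NAC032 by 3.56 against 1.44 (contrast 2.12 ± 0.35). NAC047, NAC102 and ATAF1 were also called in OE alone, where they rose by 2.44, 1.61 and 1.77. NAC6 (ORE1), a senescence regulator, and AT3G15500 (ANAC055) had contrasts of 2.34 ± 0.45 and 2.15 ± 0.49 with no called response.

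The CBF and DREB2 factors bind the drought- and cold-responsive element of genes such as COR15A and LTI78. Of 12 tested, 4 rose in OE and 2 in WT, with a median contrast of 0.89. CBF1 (AT4G25490) stood at 0.37 and -0.25 in OE under ABA, -4.61 and -3.74 in OE in water, -1.54 and -1.84 in WT under ABA, and -2.65 and -1.63 in WT in water. Both OE groups lay outside the range of the WT arrays, on opposite sides. CBF1 rose 18.8-fold in OE, against a ratio of 1.36 in WT, a contrast of 3.79 ± 0.64 (adjusted p = 0.169). DREB2A rose by 2.18 in OE, against 0.31 in WT (contrast 1.87 ± 0.34, without a value on WT in water replicate 1). DREB1A (CBF3) rose in both genotypes, by 2.60 in OE and 2.37 in WT, and CBF2 was called in OE alone, with contrasts of 0.22 ± 0.29 and 0.70 ± 0.31. TINY2 was called in WT alone, with responses of 2.23 in WT and 1.38 in OE. AT2G40350 (contrast 3.97 ± 1.86), DREB2C (2.12 ± 0.58) and DDF1 (-2.52 ± 1.21) had no called response, and each was below background throughout at least 1 group.

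Among zinc finger repressors, ZAT6 rose by 2.95 in OE, against -0.22 in WT (contrast 3.17 ± 0.55), STZ (ZAT10) by 2.00 against -0.44 (2.44 ± 0.46) and ZF2 by 1.93 against 0.98 (0.95 ± 0.20). ZAT11, below background in OE in water, and RHL41 (ZAT12) had contrasts of 3.36 ± 1.00 and 1.15 ± 0.56 with no called response. Of 11 tested genes of this list, 3 rose in OE and 0 in WT. In the WRKY list 44 of 57 contrasts were positive and the median was 0.50. WRKY6 rose in OE by 1.41, against -0.37 in WT, and was the only WRKY gene called. Of the heat shock factors, HSFA6B was not well above background in water in either genotype and rose at least 98.8-fold in OE and at least 27.8-fold in WT. HSFC1 rose by 3.42 in OE, against 1.49 in WT (contrast 1.93 ± 0.42), HSF4 by 1.36 against 0.29, and HSFA1E by 1.36 against 0.74. HSFA6A, likewise below background in water, rose at least 25.3-fold in WT, and its bound in OE was 4.89-fold (adjusted p = 0.0505).

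HD-ZIP factors act in drought, shade and auxin responses. Of 25 tested, 4 rose and 1 fell in OE, 2 rose and 2 fell in WT, and the median contrast was 0.78. HB-12 rose by 3.41 in OE and 2.78 in WT and AT2G46680 (HB-7) by 3.05 in OE and 2.80 in WT. HB-2, the shade-avoidance factor, stood at -2.40 and -1.92 in OE under ABA, -2.01 and -2.12 in OE in water, 0.12 and -0.13 in WT under ABA, and 2.50 and 2.63 in WT in water. The OE arrays overlapped between treatments, whereas the WT groups were apart. HB-2 fell by 2.57 in WT, against -0.10 in OE, a contrast of 2.48 ± 0.28 (adjusted p = 0.11). HB18 rose by 2.06 in OE, against -0.21 in WT, and its contrast of 2.27 ± 0.18 shared the lowest adjusted p of 0.0953. HAT22 rose by 1.13 in OE against -0.26 in WT, and HAT1 fell by 1.49 in OE and fell by 2.53 in WT. HB4 had a contrast of 4.66 ± 0.85 but no value on WT in water replicate 1.

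**Figure D3:**
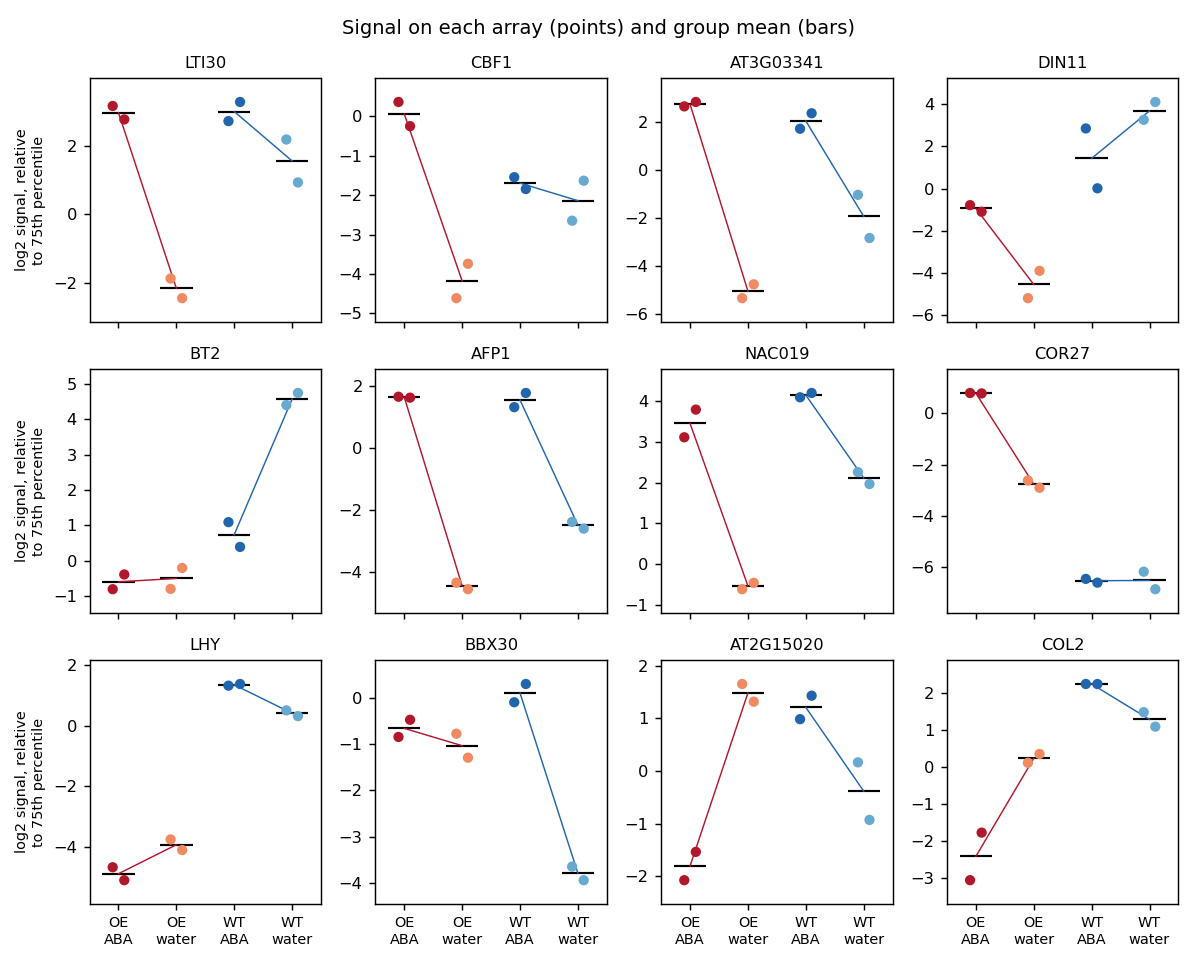
Log2 signal relative to the 75th percentile on each array (points) and group means (bars) for 12 genes, in OE (red, ABA left of water) and WT (blue, ABA left of water). LTI30, AFP1 and NAC019 are lowest in OE in water, BT2 and BBX30 were called between treatments in WT alone, and AT2G15020 and COL2 in OE alone, with a response of the other sign in WT.

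Circadian clock genes gave lists with medians of opposite sign. The plant clock runs on morning factors such as LHY and CCA1 and on evening factors such as TOC1, ELF4 and PCL1 (LUX), which repress each other in turn. Of 14 evening genes, 8 were called as rising under ABA in OE and 0 in WT, 7 contrasts were positive past the unadjusted rule, and the median contrast was 1.22. Over all genes, 1.71% rose in OE, 0.58% rose in WT and 3.52% had a positive contrast past that rule. Of 14 morning genes, 1 fell in OE and 0 in WT, 6 contrasts were negative past the rule (2.92% over all genes), and the median was -0.89. COR27 (AT5G42900), a cold-regulated evening repressor, stood at 0.79 and 0.77 in OE under ABA, -2.62 and -2.90 in OE in water, -6.45 and -6.59 in WT under ABA, and -6.17 and -6.85 in WT in water. Every OE array was above every WT array. COR27 rose by 3.54 in OE (adjusted p = 0.00608), while in WT it was above background on 1 of 4 arrays and its response could not be measured. Its relative AT4G33980 (COR28) rose by 2.62 in OE, against -0.11 in WT (contrast 2.74 ± 0.27, adjusted p = 0.0953). ELF4, a subunit of the evening complex, rose by 2.43 in OE against 0.18 in WT, its partner PCL1 by 1.22 against -0.34, and the PCL1 relative BOA by 2.20 against 0.71. TOC1 rose by 1.27 in OE, against -0.26 in WT, PRR3 by 1.13 against -0.35, and the blue-light receptor FKF1 by 1.21 against 0.26.

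LHY (AT1G01060) stood at -4.67 and -5.10 in OE under ABA, -3.75 and -4.10 in OE in water, 1.32 and 1.37 in WT under ABA, and 0.50 and 0.31 in WT in water. The gap between genotypes was much larger than either response, and the responses of -0.96 in OE and 0.94 in WT pointed opposite ways without being called (contrast -1.89 ± 0.29, adjusted p = 0.155). CCA1, its partner, responded by -0.96 in OE and 0.91 in WT (contrast -1.88 ± 0.39), and PRR9, the earliest of the day's pseudo-response regulators, by -1.07 in OE and 1.58 in WT (contrast -2.66 ± 0.49). AT3G54500 (LNK2) was the morning gene that fell in OE, by 1.19 against 0.23 in WT. AT3G12320 (LNK3) had a contrast of -2.05 ± 0.37. Relative to WT, the evening genes had a median level in OE of 2.81 under ABA and 1.37 in water, and the morning genes of -1.85 under ABA and -0.85 in water. The hour of day at which each group was harvested is not given in the sources used here, and its part in these differences was not tested. The blue-light receptor ZTL had a contrast of 0.03 ± 0.22.

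**Figure D4:**
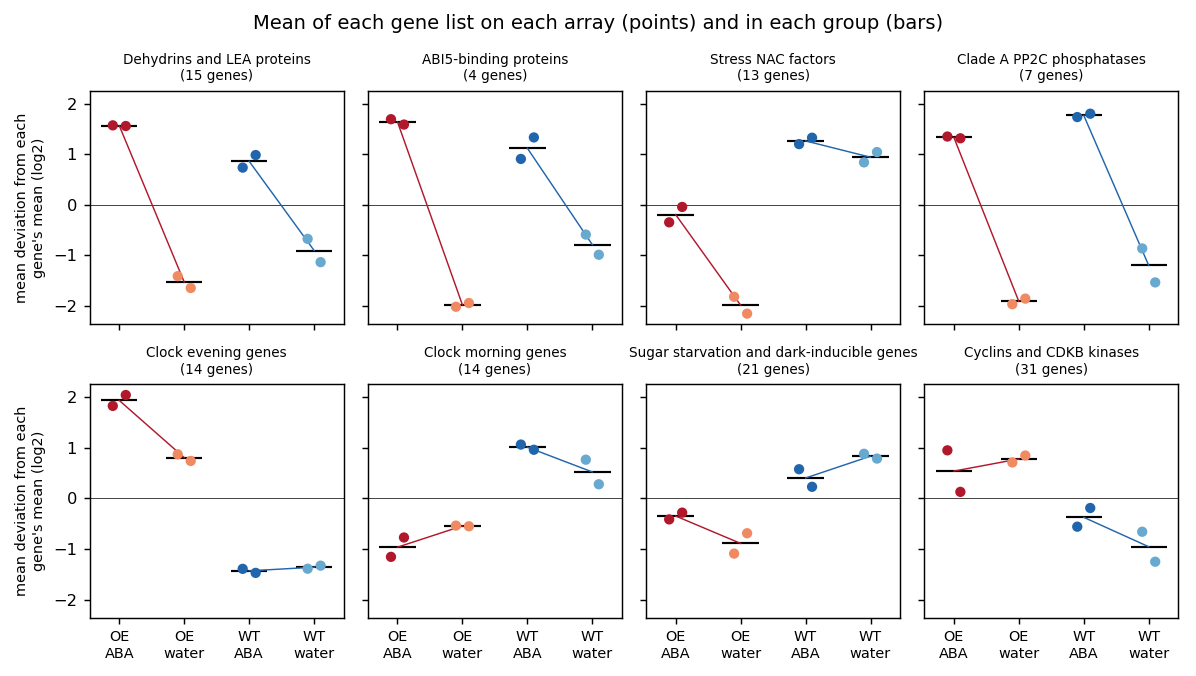
Mean deviation of the genes of a list from each gene's own mean over the 8 arrays (log2), on each array (points) and in each group (bars), for 8 lists, in OE (red) and WT (blue) with ABA left of water. The dehydrins and ABI5-binding proteins are lowest in OE in water, the PP2C phosphatases are higher under ABA in both genotypes, and the clock lists are set apart mainly by genotype.

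Of 21 tested genes of sugar starvation and darkness, 7 contrasts were positive and 1 negative past the unadjusted rule, the median was 0.95, and 2 genes fell in WT and 0 in OE. BT2 (AT3G48360), a BTB-domain protein that responds to sugar and nitrate, stood at -0.80 and -0.39 in OE under ABA, -0.79 and -0.20 in OE in water, 1.09 and 0.39 in WT under ABA, and 4.40 and 4.74 in WT in water. The OE groups overlapped, and WT in water was far above all others. BT2 fell by 3.83 in WT, against -0.10 in OE (contrast 3.73 ± 0.46, adjusted p = 0.118). The trehalose phosphate synthase relative TPS9 fell by 1.11 in WT, against a response of 0.22 in OE. DIN11 (AT3G49620), a dark-induced dioxygenase with the highest contrast of all genes above background in every group, stood at -0.78 and -1.09 in OE under ABA, -5.18 and -3.89 in OE in water, 2.85 and 0.02 in WT under ABA, and 3.26 and 4.10 in WT in water. The responses of 3.60 in OE and -2.25 in WT pointed opposite ways without being called, and the 2 WT arrays under ABA were far apart (contrast 5.84 ± 1.33, adjusted p = 0.236). DIN2, below background in WT in water, had a contrast of -4.04 ± 1.97 and BCAT-2 of 2.47 ± 0.81. In the nitrate list, NIA2, nitrate reductase, fell by 2.07 in OE, against -1.07 in WT (no value on WT in water replicate 1), LBD38 fell by 2.44 in WT against -1.07 in OE, and WR3 rose by 1.56 in OE against -0.06 in WT. BT1 had a contrast of 1.66 ± 0.36.

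In pattern-triggered immunity all 10 contrasts were positive, with a median of 1.29, and FRK1, a receptor kinase induced by microbial patterns, rose 24.3-fold in OE against a ratio of 2.18 in WT (contrast 3.48 ± 0.93). The ethylene and jasmonate ERF branch had 15 of 16 positive contrasts and a median of 1.06. ERF1 had a contrast of 2.75 ± 0.80 and the basic chitinase HCHIB of 2.59 ± 0.91. ERF14 fell in WT to a ratio of 0.353 and was not well above background on any OE array. The PDF1 defensins had a median of 1.27 over 5 genes, each with an SE above its contrast, as in PDF1.2 at 1.61 ± 1.77. That median became -0.05 without WT in water replicate 2 and 2.61 without OE in water replicate 2, so its direction changed with the array left out. The 24 genes of aliphatic glucosinolates, sulfur-rich defence compounds, all had positive contrasts, with a median of 0.94 and none past the unadjusted rule. Their largest was that of GSTF11, 1.59 ± 0.83. Duplicate arrays disagreed on these genes, with mean deviations from each gene's mean of 0.73 and -0.14 in OE under ABA. The deviations were 0.62 and -0.30 in OE in water, -0.43 and -0.79 in WT under ABA, and 0.43 and -0.09 in WT in water. CYP81F2 of the indolic branch had a contrast of 1.47 ± 0.53. The salicylic acid list stood at a median of -0.04, and at -0.45 without WT in water replicate 2, and NIMIN1, which binds NPR1, had a contrast of -3.06 ± 1.15.

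Of 31 tested cyclins and CDKB kinases, which drive the cell cycle, 30 had a negative contrast, 3 of them past the unadjusted rule, with a median of -0.81. Over all genes, 9424 of 19467 contrasts were negative. The median response was -0.24 in OE and 0.59 in WT, and no gene of the list was called in either genotype. CYCD1;1 (AT1G70210) stood at -3.04 and -3.40 in OE under ABA, -2.59 and -2.27 in OE in water, -3.26 and -3.03 in WT under ABA, and -4.08 and -4.31 in WT in water. It was lower under ABA than in water on the OE arrays and higher under ABA on the WT arrays, with a contrast of -1.84 ± 0.29. CYCD4;2 had a contrast of -1.99 ± 0.66 and CYCA2;3 of -1.27 ± 0.52. Duplicate arrays disagreed on this list, with mean deviations around each gene's mean of 0.95 and 0.13 in OE under ABA. The deviations were 0.71 and 0.85 in OE in water, -0.56 and -0.19 in WT under ABA, and -0.66 and -1.25 in WT in water. Histones had 2 positive contrasts of 22, with a median of -0.53, led by HTB1 at -1.24 ± 0.38. Xyloglucan endotransglucosylases, which loosen and rebuild walls, had a median of -0.50, led by XTH25 (-3.40 ± 0.74, no value on WT in water replicate 1) and XTH12 (-2.82 ± 0.92, below background in OE in water and WT in water). XTH30 fell by 1.69 in WT, against -0.26 in OE. Ribosomal protein genes had 4 positive contrasts of 51 and a median of -0.33.

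In the auxin, ethylene, senescence and flavonoid lists few genes were called. GH3.9, an auxin-conjugating enzyme, fell by 1.73 in OE against 0.32 in WT (contrast -2.05 ± 0.36). ACS2, which makes the ethylene precursor, rose in both genotypes, at least 8.78-fold in OE and 8.57-fold in WT. Of the SAUR genes, AT2G21220 fell by 2.18 and AT2G21210 by 1.11 in OE, and AT1G56150 rose by 1.55. SAG21, a mitochondrial LEA-type protein of senescing leaves, rose by 2.08 in OE against -0.16 in WT (contrast 2.24 ± 0.44). MYB111, an activator of flavonol genes, had a contrast of -2.59 ± 0.46, while DFR, later in the anthocyanin pathway, had 4.78 ± 2.91.

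Several genes with a high contrast belong to no list above. AT3G03341 stood at 2.64 and 2.82 in OE under ABA, -5.36 and -4.78 in OE in water, 1.71 and 2.35 in WT under ABA, and -1.05 and -2.85 in WT in water. OE was the highest group under ABA and the lowest in water, and its rise of 7.80 in OE compared with 3.98 in WT (adjusted p = 0.0562, contrast 3.82 ± 0.84). AT2G43620, a chitinase family gene, rose by 3.36 in OE against -0.34 in WT. AT5G61160, an acyltransferase (5.02 ± 1.13), the peroxidase PRXCA (4.94 ± 1.98), AT1G61255 (4.27 ± 0.78), the kinase CIPK25 (4.14 ± 0.83) and the ornithine acetyltransferase NATA1 (4.08 ± 1.61) had no called response. Among genes not above background on some array, DIR5, a dirigent protein, stood at -7.21 and -8.24 in OE under ABA and -8.50 and -8.54 in OE in water, all below background, at -6.90 and -6.27 in WT under ABA, and at 1.54 and 1.06 in WT in water. DIR5 fell by 7.88 in WT (adjusted p = 0.00725), and in OE no response could be measured. AT5G61890, an ERF factor, rose by 4.13 in OE against -1.27 in WT (contrast 5.40 ± 0.63), and ST2A, a hydroxyjasmonate sulfotransferase, at least 10.1-fold in OE against -1.06 in WT. AGF1 had a contrast of 5.17 ± 1.78 and PRX52 of 4.60 ± 1.75.

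Of the genes with the lowest contrast, 4 fell in OE and 3 rose in WT. AT2G15020 stood at -2.07 and -1.54 in OE under ABA, 1.65 and 1.31 in OE in water, 0.98 and 1.43 in WT under ABA, and 0.16 and -0.93 in WT in water. It fell by 3.29 in OE, against a positive response of 1.59 in WT, a contrast of -4.88 ± 0.57 (adjusted p = 0.11). COL2, a CONSTANS relative, fell by 2.64 in OE against a positive response of 0.95 in WT, TRY, a repressor of trichome fate, by 2.24 against 0.85, and AT5G42760 by 2.05 against 0.97, with the lowest adjusted p of 0.0953. BBX30 (AT4G15248), a B-box microprotein, stood at -0.84 and -0.47 in OE under ABA, -0.77 and -1.29 in OE in water, -0.09 and 0.30 in WT under ABA, and -3.65 and -3.94 in WT in water. Only WT in water stood apart, and BBX30 rose by 3.90 in WT against 0.38 in OE (contrast -3.53 ± 0.37, adjusted p = 0.0988). NIG1, a bHLH factor, rose by 3.75 and AT1G60590, a pectin lyase-like protein, by 4.16 in WT, against -0.18 and 0.23 in OE. AT5G03350, a legume-type lectin (-3.78 ± 0.50), AT3G56220 (-3.61 ± 0.64), the transporter ABCG17 (-3.08 ± 0.64) and WRKY38 (-3.07 ± 0.81) had no called response. After normexp correction ABCG17 stood at -0.076, AT5G42760 at -1.09, WRKY38 at -1.50, TRY at -1.59, AT3G56220 at -1.70 and NIG1 at -2.19. Among genes not above background on some array, AT4G18920 was at least 10.3-fold higher in WT under ABA than in WT in water (adjusted p = 0.0154) and not above background in OE. AGL83, a MADS-box factor (-6.38 ± 1.89), AT3G09450 (-5.50 ± 0.91), AT5G37474 (-5.05 ± 1.24) and AT1G70270 (-4.53 ± 1.19) had no called response. After normexp correction these 4 contrasts stood at 0.017, -1.66, 0.46 and 0.093 in the same order, so their sizes are not settled.

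Marker and control lists were read the same way. The photosystem genes that mark leaf had a median contrast of -0.10 over 46 genes, with mean levels between 5.82 and 6.30 on every array. The 9 common reference genes had a median of 0.06, led by UBQ10 at 0.44 ± 0.21, and mean levels between 3.11 and 3.32. Of 20 root markers 12 were tested, with a median contrast of -0.66 and mean levels of -3.86 and -4.16 in OE under ABA, -2.81 and -3.91 in OE in water, -4.47 and -3.61 in WT under ABA, and -3.42 and -4.22 in WT in water. The root hair gene SHV2 fell in OE, where it was at least 6.30-fold lower under ABA, and was below background in WT. The 14 guard cell and stomatal lineage markers had a median of -0.56, with MUTE, which commits guard mother cells, at -2.15 ± 0.42. Of 11 pollen and 15 seed markers, 2 each were tested. The other 9 and 13 had no probe with a locus tag, or none well above background on both arrays of a group. After normexp correction the root median was 0.96 and the guard cell median 0.12, against 0.326 over all probes. Relative to all probes, the root median then stood at 0.63 and the guard cell median at -0.21, still negative. Each of these 2 medians changed sign in 2 of the alternative settings. The part of these cell types in the contrasts above was not tested.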

How the data were processed

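RNA of 8 samples was hybridized to 8 single-dye Agilent arrays. Per the file headers, the authors scanned them and extracted processed intensities with Feature Extraction 10.7.3.1 (protocol GE1_107_Sep09), which subtracts background. The deposited series table holds log2 values of the same arrays, normalized by the authors in a way the sources used here do not fully describe, and served as an alternative.

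Here control spots and outlier spots were left out, spots of a probe were averaged, log2 of the processed intensity was taken and each array's 75th percentile subtracted. Probes well above background on 2 arrays of a group were kept. Groups came from the sample titles, which the genotype and treatment fields match and the free-text descriptions do not. limma 3.58.1 in R 4.3.3 fitted 4 group means with empirical Bayes variances and Benjamini-Hochberg adjustment over 31264 probes, and gave every adjusted p in the text. A call needs an adjusted p under 0.05 and at least 2-fold. Scripts were tested on simulated data. Against the RefSeq annotation of TAIR10.1, 34346 probes (78.77%) had 1 locus tag, 25409 loci in all, and 208 probes were named differently in the 2 design versions. A gene is its tested probe with the highest mean signal, and symbols shared by several loci appear as locus tags. A bound ("at least N-fold") sets the brighter group against the lowest signal above background on each dim array, or the probe's own where higher.

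Genes named were the 12 highest and 12 lowest contrasts past the unadjusted rule among genes above background in all groups, the 5 highest and 5 lowest among the others, and in each list up to 4 members with the largest contrast and members called for a response. HAI1, ZTL and a few other members fell outside this rule and were picked with their values known. The members, the 58 gene lists and the tests were chosen with earlier results of these data known. Alternatives covered normalization, background correction, filters, outlier spots, replicate and slide blocks, the test, the threshold and leaving out each array. Normexp correction used median signals because mean signals were not in the files used. Promoter sequences were not used here.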

Additional observations from a re-analysis of the deposited data

Results flagged for a closer look

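In 17 of the 34 genes named by rank, every difference between an ABA and a water array pointed one way in OE and the other way in WT. limma's interaction test called none of them in the setting reported. It called DIR5 from the deposited table (8.72), and without WT in water replicate 2 it called DIR5 (8.91), ST2A (5.30), CIPK25 (5.10) and AT5G42760 (-3.20). A positive contrast (response up in OE, down in WT) was found for DIR5 (8.67), DIN11 (5.84), AT5G61890 (5.40), AGF1 (5.17), AT5G61160 (5.02), ST2A (4.49), AT1G61255 (4.27) and CIPK25 (4.14). A negative contrast was found for AT3G09450 (-5.50), AT4G18920 (-5.33), AT2G15020 (-4.88), AT1G70270 (-4.53), AT5G03350 (-3.78), COL2 (-3.60), TRY (-3.09), ABCG17 (-3.08) and AT5G42760 (-3.02). DIR5 was not above background on any OE array and AT4G18920 on none either, so their direction in OE is not measured. AGF1 was above background on no array of WT under ABA and on 1 array of WT in water. The direction of AGF1 in WT is therefore not measured either. The genes were ranked by this contrast, which favours opposite directions.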

How the results depend on the processing

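The interaction gave 0 called probes in the setting reported, 6 after quantile normalization, 9 from the deposited table, 23 at an adjusted p under 0.1 with no minimum fold, and 2027 by the unadjusted rule. Leaving out 1 array gave 0 to 82 called probes, and the 82 came without WT in water replicate 2, while each of the other 7 omissions gave 0. The 6 probes were all among the 9, RR22 and LBD22 included, and the 9 also held DIR5, COR27 and AT4G33980. Of the 82, 23 were positive, COR15A (4.75) and HB18 (2.20) included, and 59 negative. That omission left WT in water replicate 1, the array with 1148 outlier spots, alone in its group. The spread between the 2 WT water arrays then did not enter the fit. Among the negative contrasts, AT1G24050 stood at -10.3 and TIM17-2 at -10.0. With all arrays they stood at -5.14 and -4.69 (limma adjusted p = 0.657 and 0.695). The cause of these differences was not tested.

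The ABA response in OE had 639 called probes, against 114 after normexp correction, 281 with no filter, 336 with the replicate block, 0 by Welch's comparison, 0 by ordinary least squares, 2032 by the unadjusted rule and 1340 at the wider threshold. Without 1 array it had 19 to 618, the 19 without OE in water replicate 2. The response in WT had 251, against 28, 88, 83, 0, 0, 1813 and 827 in the same order, 527 with slide as a random block (correlation -0.164), and 8 to 197 without 1 array, the 8 without WT under ABA replicate 2. Slide as a fixed term could not be estimated.

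Same-numbered arrays of different groups deviated with correlations of -0.179 to 0.113. Whether arrays with the same replicate number share a batch was not tested. With the replicate block the interaction had 0 called probes and 1192 positive and 918 negative by the unadjusted rule. Crossing the WT numbers, chosen after seeing the data, gave 0 interaction calls and 136 in WT.

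The 2027 probes became 1269 after normexp, 569 by Welch's comparison (368 positive, 201 negative) and 1327 by ordinary least squares (548 negative). The negative count of 881 became 319 after normexp and ran between 664 and 1347 without 1 array, the 1347 without OE under ABA replicate 2. The 72 genes with opposite responses became 38 after normexp, 45 when every array had to be above background, 25 by Welch's comparison, and 67 to 113 without 1 array, the 113 without OE under ABA replicate 2. Normexp moved the median contrast of all probes to 0.326, from 0.03.

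Of 58 list medians, 27 changed sign under at least 1 alternative and 31 under none. Root markers (0.96), guard cell markers (0.12), expansins (0.43) and DNA replication genes (0.11) turned positive after normexp. Relative to the all-probe median of 0.326 in that setting, guard cell markers (-0.21) and DNA replication genes (-0.22) stayed negative, while root markers (0.63) and expansins (0.11) did not. The growth-regulating factors stood at -0.04 without OE under ABA replicate 1. The stress NAC factors stood at 1.32 in the deposited table, 1.40 with outlier spots kept and 1.12 to 1.71 without 1 array. The clock morning genes stood at -0.45 and the cyclins at -0.18 after normexp, and without 1 array at -1.25 to -0.63 and -1.30 to -0.35. The clock evening genes stood at 1.48 among probes open to Welch's comparison and 1.10 to 1.42 without 1 array. The dehydrins ran between 1.07 and 1.57 and sugar starvation between 0.69 and 1.09 without 1 array. After normexp, 4 named contrasts turned positive, namely AGL83 (0.017), AT4G18920 (0.45), AT5G37474 (0.46) and AT1G70270 (0.093), each below background on some arrays. AGL83 and AT1G70270 were then below the all-probe median of 0.326. The other 30 of the 34 genes named by rank kept their sign under the alternatives run, but 12 shrank by over 1.5 times after normexp, 8 of them negative, ABCG17 to -0.076. With 2 arrays a group, the median SE of a contrast was 0.31.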

Other observations

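The lists not described above had few calls. Growth-regulating factors, which promote leaf cell proliferation, had a median contrast of 0.57 over 11 genes with 0 past the unadjusted rule, and of -0.04 without OE under ABA replicate 1. The JAZ repressors of jasmonate signalling had 11 positive contrasts of 12 and a median of 0.75, and none passed the rule. Duplicate arrays of OE under ABA disagreed on these genes, with mean deviations from each gene's mean of 0.60 and -0.39. The median was 0.44 without OE under ABA replicate 1 and 1.08 without replicate 2. Genes of starch synthesis and breakdown stood at a median of 0.03 over 30 genes, with 1 past the rule, and aquaporins, the water channels, at -0.18 over 20. Ribosome biogenesis factors had a median of 0.23 over 16 genes. Iron deficiency genes (0.31 over 11) had none past the rule.

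Among the small heat shock proteins, AT4G21870 fell by 2.45 in OE and fell by 2.61 in WT, with a contrast of 0.16 ± 0.43. AT2G47780 of the ABA-induced effectors rose by 5.18 in OE and by 5.03 in WT, with a contrast of 0.14 ± 0.83.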
